A study of Mus musculus with 12 samples.

Results

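Retinoid metabolism was followed through 9 genes in mammary tumors of MMTV-Neu mice, namely Cyp26a1 and Cyp26b1 (breakdown of retinoic acid), Crabp1 and Crabp2 (binding), Aldh1a1, Aldh1a2 and Aldh1a3 (synthesis), Stra6 (uptake of retinol) and Dhrs3 (reduction of retinal). They were taken by name from the 54532 genes listed in the count and FPKM tables. All 9 were found, each in 1 row. Only Cyp26b1, Crabp2, Aldh1a3 and Dhrs3 passed the filter on low counts, which kept 15504 genes. Cyp26a1, Crabp1, Aldh1a1, Aldh1a2 and Stra6 did not pass, although each had reads in some tumors, and they were tested without the filter, among the 29907 genes with a count.

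The 12 tumors came from female mice carrying Neu, the rat form of the HER2 gene, driven in mammary epithelium by the promoter of the mouse mammary tumor virus (MMTV). Once a tumor measured 4 mm, the mouse was given powdered control diet, or the same diet with 100 mg of MSU-42011 or of bexarotene per kg, for 10 days. Each group held 4 tumors from 4 mice, and the ages of the mice are not given in the sources used here. Bexarotene is an approved drug that activates the retinoid X receptor (RXR), and MSU-42011 is a newer RXR agonist. The groups address how the 2 agonists change transcription in these tumors.

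Cells take up retinol, oxidize it to retinal and then, with the ALDH1A enzymes, to retinoic acid. DHRS3 runs the first step backward, from retinal to retinol. CRABP2 carries retinoic acid to the nucleus, CRABP1 holds it in the cytoplasm, and CYP26 enzymes oxidize it to products that are cleared. Retinoic acid activates the retinoic acid receptors (RARs), which bind DNA as heterodimers with RXR at direct repeats of a hexamer. Cyp26a1, Cyp26b1, Crabp2, Stra6 and Dhrs3 are known RAR targets in many cell types, so that their transcripts are often read as a measure of retinoic acid response.

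Total counts ran from 16583413 to 25925027 per tumor, and 3 counts corresponded to between 0.111 and 0.184 CPM, the count scaled to a common library size after TMM normalization. Intervals and floors from read numbers reflect the counting error alone. The labelled tissue was matched by luminal epithelial markers. Epcam lay between 1353 and 2533 CPM, Krt8 between 485 and 1225 CPM, and Erbb2 between 93.8 and 173 CPM, whereas Krt19 had a median of 0.412 CPM. Bexarotene replicate 1 stood apart. The summed level of 9 fibroblast markers was 10530 CPM there and 103 to 826 CPM in the other 11 tumors, that of 8 macrophage markers 2085 against 249 to 762 CPM, and that of 8 luminal markers 2930 against 4337 to 5955 CPM. Of the luminal markers, Epcam, Cdh1, Krt8, Krt18 and Elf5 were lowest in that tumor, and Erbb2 (103 CPM) was not. Krt7 was 39.0 CPM there, against a median of 36.9 CPM, and Krt19 was highest, with 28.15 CPM against at most 1.96 CPM elsewhere. In bulk tumors, fewer cells of a type and less RNA per cell cannot be told apart. The fold changes of the members that involve bexarotene are therefore given with and without this tumor, except for Crabp1, which had no read in the other bexarotene tumors.

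The 9 genes covered a wide range of levels. In control tumors, Crabp2 had a mean of 104 ± 14.4 FPKM (SD, n = 4) and Dhrs3 a mean of 89.1 ± 13.6 FPKM, and their ranges overlapped. Both lay above 90.9% of the kept genes. Aldh1a3 followed with 5.13 ± 6.47 FPKM and did not overlap with Dhrs3. From Aldh1a3 downward, each gene overlapped with the next. Cyp26b1 had 0.568 ± 0.626 FPKM, Aldh1a1 had 0.422 ± 0.783 FPKM, Crabp1 had 0.106 ± 0.138 FPKM, Aldh1a2 had 0.0944 ± 0.113 FPKM, Stra6 had 0.0675 ± 0.0542 FPKM and Cyp26a1 had 0.0310 ± 0.0430 FPKM. The length that these FPKM imply is shorter than the listed gene length for 6 of the 9 genes, as for 80.3% of the kept genes. With the listed length, the first 4 genes and Aldh1a2 kept their rank, Crabp1 moved above Aldh1a1, and Cyp26a1 above Stra6. Crabp2 (52.5 to 70.3) then no longer overlapped with Dhrs3 (35.3 to 47.7). Transcripts of Crabp2 and Dhrs3 were thus far more abundant than those of any of the 3 synthesis enzymes or 2 breakdown enzymes, while those of Crabp1 were not.

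**Figure D1:**
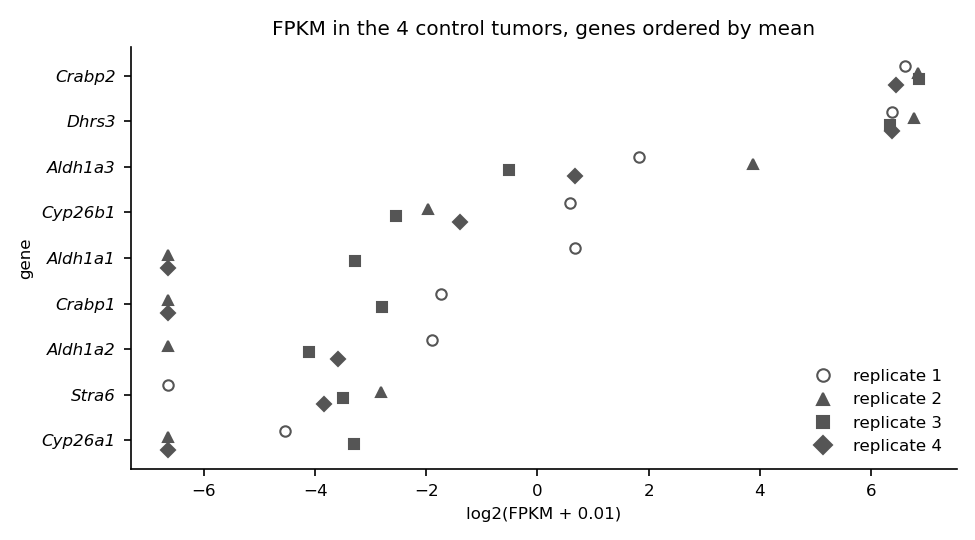
Level of each of the 9 genes in the 4 control tumors, as log2(FPKM + 0.01) on the horizontal axis, with 1 symbol per tumor and genes ordered by mean. Crabp2 and Dhrs3 lie near 100 FPKM in every tumor, and the 7 other genes lie below them and spread over wide, overlapping ranges.

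Cyp26a1 (ENSMUSG00000024987, chromosome 19, 37697808 to 37701528, plus strand) encodes an enzyme that clears retinoic acid and is among the most responsive targets of the RARs. Its promoter is shown because it held the only repeat of the RAR type found among these genes. RefSeq promoters (GRCm38.p6, 250 bases before to 50 after the start) were searched on both strands for the hexamers AGGTCA, then AGTTCA, then GGGTCA and then GGTTCA, and for direct repeats of 2 of them with 1, 2 or 5 bases between. The window of Cyp26a1, on the plus strand at chr19:37697558-37697857, is printed 5′ to 3′ with the repeat in capitals. The window of Aldh1a2, on the plus strand at chr9:71215539-71215838, is printed for comparison, since both genes were highest in the same 2 tumors.
Cyp26a1: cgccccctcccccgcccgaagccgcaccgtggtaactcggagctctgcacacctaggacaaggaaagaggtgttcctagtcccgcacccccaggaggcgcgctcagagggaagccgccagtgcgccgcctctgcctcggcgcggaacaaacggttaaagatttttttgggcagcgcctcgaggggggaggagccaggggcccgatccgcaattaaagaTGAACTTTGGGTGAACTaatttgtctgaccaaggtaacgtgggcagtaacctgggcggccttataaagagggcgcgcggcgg
Aldh1a2: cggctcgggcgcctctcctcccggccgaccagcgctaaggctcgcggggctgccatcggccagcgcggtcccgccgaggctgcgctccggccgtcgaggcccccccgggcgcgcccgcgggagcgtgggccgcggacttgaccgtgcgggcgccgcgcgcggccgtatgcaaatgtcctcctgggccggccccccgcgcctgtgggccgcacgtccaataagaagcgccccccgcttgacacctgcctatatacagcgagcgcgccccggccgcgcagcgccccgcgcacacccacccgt

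The capitals in Cyp26a1 mark 2 copies of AGTTCA, read on the opposite strand, with 5 bases between them, from 32 to 16 bases before the start (37697776 to 37697792). Among all 32851 windows of this length, 0.0974% held a repeat with 5 bases between, 0.222% one with 1 base and 0.268% one with 2 bases. The window of Aldh1a2 held none of the hexamers. Of the 7 members in the table, 3 held a hexamer in at least 1 window (Cyp26a1, Aldh1a1 and Stra6), as did 46.9% of all 27025 genes. Crabp2 and Aldh1a3 were not in this table. A match is a description of these letters and not of binding.

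Cyp26a1 was at or near 0 outside the bexarotene group. The control tumors had 0.0593, 0, 0.160 and 0 CPM, which were 4 reads in all, and the MSU-42011 tumors had 0, 0, 0 and 0.0838 CPM, which were 2 reads in all. The bexarotene tumors had 2.84, 0.715, 0 and 0.184 CPM, from 77, 15, 0 and 3 reads. Bexarotene replicates 1 and 2 were thus the 2 highest of the 12 tumors, while bexarotene replicate 3 had no read, and the groups overlapped. The rate of reads in the bexarotene group was 22.3 times that in controls (95% counting interval 8.44 to 83.6), and 6.21 times (2.04 to 25.2) without bexarotene replicate 1. These intervals pool the reads of a group and leave out the spread between tumors. The difference in mean log2(CPM + 0.5) between bexarotene and control was 0.98 (exact two-sided permutation test, p = 0.171). It fell to 0.44 when the bexarotene group lacked replicate 1.

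Cyp26b1 (ENSMUSG00000063415, chromosome 6, 84571414 to 84593908, minus strand) encodes the second of these enzymes, which is known from developing skin, limb and germ cells. It was detected in every tumor, with 5.64, 0.947, 0.588 and 1.42 CPM in controls, 5.50, 0.303, 13.3 and 1.64 CPM with MSU-42011, and 11.7, 1.15, 2.62 and 1.53 CPM with bexarotene. Each group held at least 1 tumor above 5 CPM and at least 1 below 2 CPM. The log2 fold change was 1.28 (SE 1.05) for MSU-42011 and 1.00 (SE 1.05) for bexarotene against control, and the latter was −0.27 without bexarotene replicate 1. The value for MSU-42011 rested on single tumors, as it was 0.22 without MSU-42011 replicate 3 and 2.37 without control replicate 1. Among the 12 tumors, the 3 with the highest summed level of 7 myoepithelial markers (bexarotene replicate 1 with 260 CPM, MSU-42011 replicate 3 with 117 CPM and control replicate 1 with 103 CPM) were also the 3 highest for Cyp26b1. In the same order, these 3 tumors were highest for the summed macrophage markers (2085, 762 and 686 CPM) and endothelial markers (381.5, 182 and 136 CPM). The part of any of these cell types in the level of Cyp26b1 was not tested. In bexarotene replicate 1, Acta2 and Myh11, which smooth muscle also expresses, made up 195 and 35.0 of the 260 CPM, whereas Oxtr (16.0 CPM, against a median of 26.9 CPM), Trp63 and Krt17 were not highest there. The basal keratins Krt5 and Krt14 were highest in that tumor too, with 6.86 CPM against at most 0.802 CPM elsewhere and 2.95 against at most 1.23 CPM, so that 4 of 7 markers were. The median log2 fold change of the 5 markers that passed the filter was −0.70 for bexarotene against control, and −1.22 without that tumor.

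The ALDH1A enzymes make retinoic acid from retinal. Aldh1a2 (ENSMUSG00000013584, chromosome 9, 71215789 to 71296243, plus strand), the main such enzyme of the embryo, showed the clearest separation of all 9 genes. The MSU-42011 tumors had 0, 0.0606, 0.0542 and 0 CPM, which were 2 reads in all. The bexarotene tumors had 5.20, 3.0, 0.0969 and 0.184 CPM, from 141, 63, 2 and 3 reads. Every bexarotene tumor lay above every MSU-42011 tumor, although bexarotene replicates 3 and 4 were at or under the floor of 3 counts. The control tumors had 0.593, 0, 0.107 and 0.172 CPM and overlapped with both groups.

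In edgeR's quasi-likelihood test without the filter, the log2 fold change of Aldh1a2 between MSU-42011 and bexarotene was −6.01 (SE 1.39), with an unadjusted p of 0.00052 and a Benjamini-Hochberg adjusted p of 0.584. It was −5.06 (SE 1.28) without bexarotene replicate 1. The adjusted p ran from 0.0864 to 0.917 over the 12 fits that each lacked 1 tumor. DESeq2 called Aldh1a2 in this comparison (log2 fold change −6.29, SE 1.5, adjusted p = 0.0351), as it did 25 of the 29576 genes with a p (0.0845%). Over the 12 DESeq2 fits that each lacked 1 tumor, it was called in 5, DESeq2 gave no p in the fits without bexarotene replicate 1 or 2, and the adjusted p lay between 0.0522 and 0.457 in the fits without control replicate 3 or 4 or MSU-42011 replicate 1, 3 or 4. Of all genes, these fits called between 1 (without MSU-42011 replicate 1 or 3) and 171 (without bexarotene replicate 3 or 4). The fit without bexarotene replicate 3 also called Cyp26a1. The difference in mean log2(CPM + 0.5) of Aldh1a2 was −1.68, with p = 0.0286 in an exact two-sided permutation test, the smallest value that 4 against 4 tumors allow. It was −1.09 without bexarotene replicate 1. The bexarotene group had 94.7 times the rate of reads of the MSU-42011 group (95% counting interval 26 to 787), or 45.2 times (12 to 381) without bexarotene replicate 1. These intervals pool the reads of a group and leave out the spread between tumors.

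Aldh1a1 (ENSMUSG00000053279, chromosome 19, 20492715 to 20643462, plus strand), an enzyme used as a stem cell marker in human breast tissue, had reads mainly in 2 tumors. Bexarotene replicate 1 had 10.6 CPM and control replicate 1 had 1.90 CPM, while the other 10 tumors lay between 0 and 0.525 CPM. Between bexarotene and control its log2 fold change was 2.55 (SE 1.37), and −0.66 (SE 1.17) without bexarotene replicate 1. Without control replicate 1, which held 32 of the 34 control reads, it was 6.21 (SE 1.70, adjusted p = 0.746, edgeR), with an unadjusted p of 0.0023. The same 2 tumors stood apart for the summed level of 6 skeletal muscle markers (251 CPM in bexarotene replicate 1, 126 CPM in control replicate 1 and at most 4.17 CPM elsewhere), and the part of muscle in Aldh1a1 was not tested. Aldh1a1 has a close copy, Aldh1a7, with which reads may be shared. Aldh1a7 was at most 1.90 CPM, in bexarotene replicate 4.

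Aldh1a3 (ENSMUSG00000015134, chromosome 7, 66390890 to 66427517, minus strand), an enzyme also found in epithelia and the eye, was detected in every tumor. Among the 4 kept genes it varied most in the control and bexarotene groups (coefficient of variation 127% and 168%), but not with MSU-42011 (61.6%, against 113% for Cyp26b1). The control tumors had 5.34, 22.6, 1.02 and 2.46 CPM, the MSU-42011 tumors had 3.13, 0.909, 1.62 and 1.01 CPM, and the bexarotene tumors had 50.2, 4.72, 1.79 and 0.490 CPM. The MSU-42011 tumors all lay under 3.2 CPM, within the range of the bexarotene group, and replicates 2 and 4 lay just below the lowest control. The lowest of all 12 tumors was bexarotene replicate 4 and the highest bexarotene replicate 1. The log2 fold change was −2.24 (SE 1.26, adjusted p = 1.00, edgeR) for MSU-42011 against control, and −0.82 without control replicate 2. For bexarotene against control it was 0.87 (SE 1.18, adjusted p = 0.940, edgeR), and −1.74 without bexarotene replicate 1.

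Crabp2 (ENSMUSG00000004885, chromosome 3, 87948666 to 87953376, plus strand), which delivers retinoic acid to RARs, was high in every tumor. The control tumors lay between 72.4 and 96.2 CPM, the MSU-42011 tumors between 47.6 and 132 CPM, and the bexarotene tumors between 64.8 and 142 CPM. The tumors above 100 CPM were MSU-42011 replicate 2 (132 CPM) and bexarotene replicates 2 and 4 (142 and 132 CPM), and the treated groups spread more widely than controls, with a coefficient of variation of 49.2% with MSU-42011 and 39.3% with bexarotene against 13.1%. With MSU-42011 this spread rested on replicate 2, as the other tumors of that group had 47.6, 60.2 and 66.4 CPM. The log2 fold change was −0.15 (SE 0.32, 95% interval −0.85 to 0.55) for MSU-42011 and 0.27 (SE 0.32, 95% interval −0.43 to 0.97) for bexarotene against control. Without bexarotene replicate 1 the latter was 0.41, and without MSU-42011 replicate 2 the former was −0.55. Crabp2 was among the 3 members that were not highest in bexarotene replicate 1 (70.9 CPM), with Cyp26b1 and Dhrs3.

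Crabp1 (ENSMUSG00000032291, chromosome 9, 54764748 to 54773110, plus strand), the cytoplasmic counterpart, was nearly absent. It had 30 reads in bexarotene replicate 1 (1.11 CPM), no read in the other 3 bexarotene tumors, and 6 and 3 reads over the control and MSU-42011 groups. The bexarotene value of this gene was therefore that of 1 tumor.

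Dhrs3 (ENSMUSG00000066026, chromosome 4, 144892827 to 144928209, plus strand), which limits the supply of retinal, was high in every tumor, as was Crabp2. The control tumors had 109, 146, 102 and 110 CPM, the MSU-42011 tumors had 79.6, 136, 78.1 and 71.3 CPM, and the bexarotene tumors had 118, 84.6, 131 and 68.3 CPM. With MSU-42011, 3 of 4 tumors lay below every control, and replicate 2 lay within the control range. The log2 fold change was −0.36 (SE 0.24, 95% interval −0.88 to 0.17, adjusted p = 1.00, edgeR) for MSU-42011 against control, and −0.62 without MSU-42011 replicate 2, the only such fit with an unadjusted p under 0.05. It was −0.22 (SE 0.24, 95% interval −0.74 to 0.31) for bexarotene, and −0.30 without bexarotene replicate 1.

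Stra6 (ENSMUSG00000032327, chromosome 9, 58063788 to 58153996, plus strand), the cell surface receptor through which retinol bound to its carrier enters cells, had between 0 and 8 reads per tumor, at most 0.295 CPM. Differences between groups were not detectable at this depth. It overlaps with Ccdc33 on the opposite strand, which had 32 reads in all against 31 for Stra6. The strand setting of the counting is not given in the sources used here, so the reads of these 2 genes cannot be told apart. Genes that overlap with Aldh1a1 and Aldh1a2 had no reads, and the other members overlap with no listed gene.

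**Figure D2:**
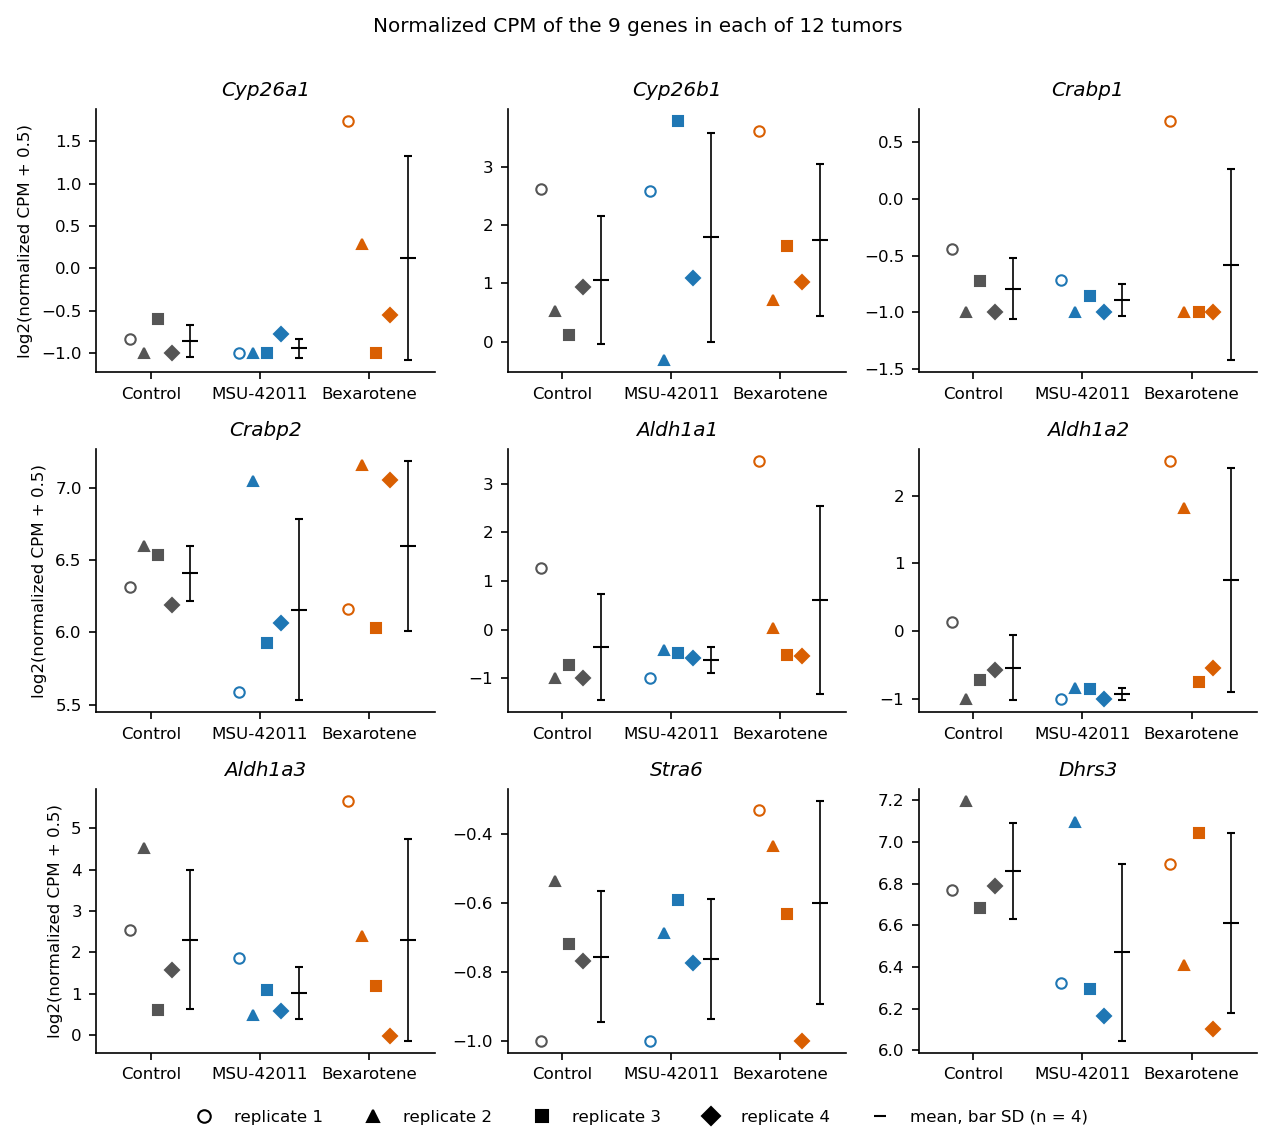
Log2(normalized CPM + 0.5) of each of the 9 genes (vertical axis, scaled for each gene) by diet group, with 1 symbol per tumor and the mean with its SD (n = 4) at the right of each group. Cyp26a1, Crabp1, Aldh1a1, Aldh1a2, Aldh1a3 and Stra6 are highest in bexarotene replicate 1 (open orange circle), while Crabp2 and Dhrs3 overlap between groups within narrow ranges.

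Across comparisons, no member that passed the filter reached an adjusted p under 0.05 in edgeR, and neither did any of the 15504 genes (0%). At an unadjusted p under 0.05, the count was 0 of 4 members for MSU-42011 against control (1.99% of all genes), 0 of 4 for bexarotene against control (6.44% of all genes), and 0 of 4 for any difference among the 3 groups (4.24% of all genes). For MSU-42011 against bexarotene it was 1 of 4, Aldh1a3 (3.95% of all genes), and Aldh1a3 was not under 0.05 in the fits without bexarotene replicate 1 or without MSU-42011 replicate 2, 3 or 4. DESeq2 called Aldh1a2 alone, in the latter comparison.

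Without the filter, the 9 members could be read together. For MSU-42011 against control, 0 of 9 had an unadjusted p under 0.05 in edgeR (2.23% of 29907 genes). Aldh1a3 came under 0.05 in 6 of the 12 fits that each lacked 1 tumor, among them the fit without bexarotene replicate 1 (log2 fold change −2.23, SE 0.71), in which 1.27% of all genes were lower at this level. For any difference among the 3 groups, 4 of 9 did (Cyp26a1, Aldh1a1, Aldh1a2 and Aldh1a3), against 4.92% of all genes, and 2 of 9 did without bexarotene replicate 1, against 3.14%. For bexarotene against control, 2 of 9 did, Cyp26a1 (log2 fold change 4.02, SE 1.32, adjusted p = 0.618, edgeR) and Aldh1a2 (3.28, SE 1.11, adjusted p = 0.627, edgeR), against 6.24% of all genes. Both were higher with bexarotene, as were 4.69% of all genes. Without bexarotene replicate 1, Aldh1a2 kept an unadjusted p under 0.05 (log2 fold change 2.35, SE 1.02), Cyp26a1 did not (2.37, SE 1.36), and Aldh1a3 was lower with bexarotene at this level (−1.74, SE 0.76). The remaining bexarotene reads of Aldh1a2 were 63 in replicate 2, 2 in replicate 3 and 3 in replicate 4. In that fit 1.77% of all genes were higher and 1.84% lower.

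**Figure D3:**
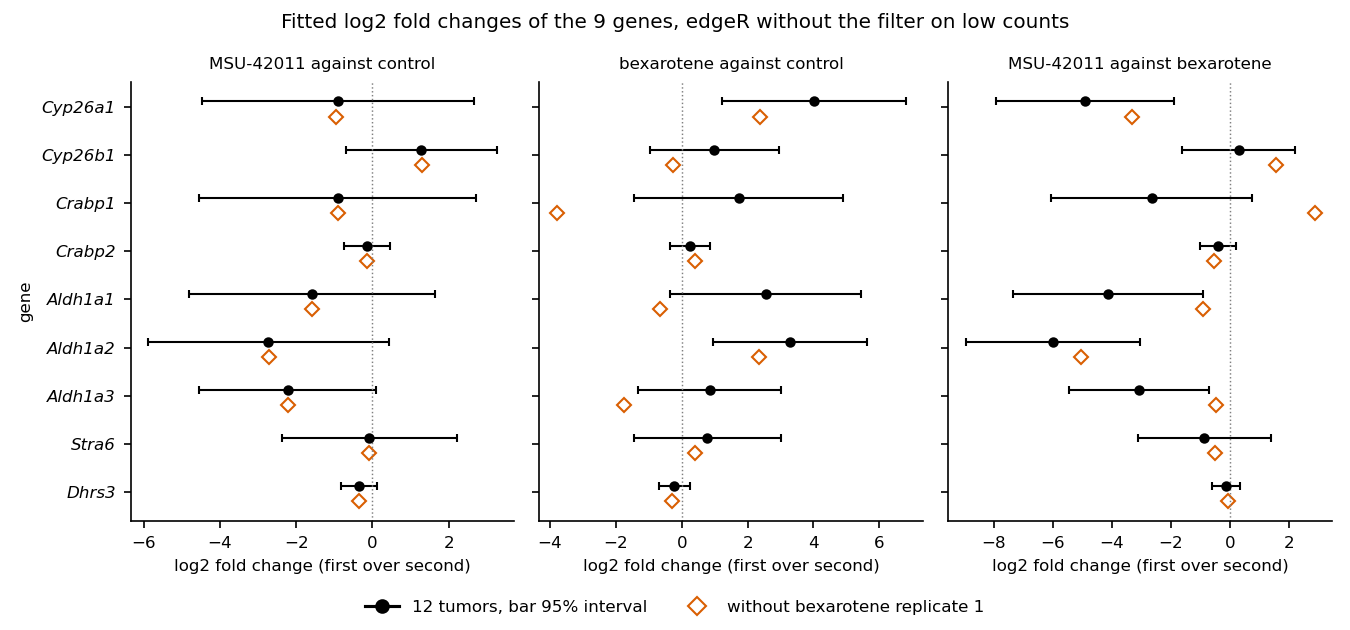
Log2 fold change of the 9 genes in 3 comparisons (horizontal axis, first group over second), from edgeR without the filter on low counts. Black points with bars give the estimate over 12 tumors and its 95% interval, and open diamonds the estimate without bexarotene replicate 1, which for Aldh1a1, Aldh1a3 and Cyp26b1 lies on the other side of 0 for bexarotene against control. The diamonds of Crabp1 in the comparisons with bexarotene rest on no bexarotene read. They depend on the prior count and are no bounds.

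The 2 agonists, fed at the same dose for the same time, formed 1 pair of compounds. In this direct comparison, 4 of 9 members had an unadjusted p under 0.05 without the filter (4.74% of all genes), and all 4 were lower with MSU-42011 (3.71% of all genes). They were Aldh1a2 (given above), Cyp26a1 (log2 fold change −4.93, SE 1.43, 95% interval −7.95 to −1.90), Aldh1a1 (−4.13, SE 1.52, 95% interval −7.35 to −0.92) and Aldh1a3 (−3.07, SE 1.13, 95% interval −5.46 to −0.69). Their adjusted p ran from 0.584 to 0.792 in edgeR. All 3 synthesis enzymes and 1 of 2 breakdown enzymes were thus lower at an unadjusted p. Without MSU-42011 replicate 4, which held the only 2 reads of its group, Cyp26a1 was −7.2 (SE 2.13). That value depends on the prior count and is no bound.

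Bexarotene replicate 1 had the highest value of each of these 4 genes. Without it, Aldh1a2 (−5.06, SE 1.28) and Cyp26a1 (−3.32, SE 1.45) kept an unadjusted p under 0.05, while Aldh1a1 (−0.92, SE 1.23) and Aldh1a3 (−0.48, SE 0.75) did not. The remaining bexarotene reads of Aldh1a2 and Cyp26a1 were then mostly those of replicate 2 (63 and 15 reads). Bexarotene replicates 3 and 4 had at most 3 reads of either gene. Crabp2 (−0.55, SE 0.26) came under 0.05 in that fit, in which 1.54% of all genes were lower at this level.

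The other 5 members did not differ at an unadjusted p under 0.05 over the 12 tumors. The 95% interval of the difference between MSU-42011 and bexarotene was narrowest for Dhrs3 (log2 fold change −0.14, 95% interval −0.66 to 0.38) and Crabp2 (−0.42, −1.12 to 0.28). Without MSU-42011 replicate 2, Crabp2 was −0.82 (SE 0.27, adjusted p = 0.757, edgeR), with an unadjusted p of 0.011. Without bexarotene replicate 1, Dhrs3 was −0.054 and, with the filter, Crabp2 −0.56. The interval was wide for Cyp26b1 (0.27, −1.95 to 2.50, and 1.55 without bexarotene replicate 1), and, without the filter, for Stra6 (−0.86, −3.12 to 1.40, and −0.49 without bexarotene replicate 1), which leaves room for changes of several fold in either direction. That of Crabp1 (−2.64, −6.06 to 0.77) reached far in the lower direction only.

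The groups of tumors overlapped for all 9 members between MSU-42011 and control, where 1.57% of the genes with a count did not overlap, and between bexarotene and control, where 1.6% did not. Between MSU-42011 and bexarotene they did not overlap for 1 of 9, Aldh1a2, against 1.04% of the genes with a count.

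Markers of stromal cells and of muscle were high in the bexarotene tumor in which most members were high. Bexarotene replicate 1 was the highest of the 12 tumors for 6 of 9 members, against 19.7% of the genes with a count, and for 9 of 9 fibroblast, 8 of 8 adipocyte, 6 of 6 endothelial, 8 of 8 macrophage and 6 of 6 skeletal muscle markers. That tumor was highest for 4 of 7 myoepithelial, 3 of 8 epidermal, 1 of 7 T cell and 1 of 8 luminal markers. Col1a1 was 3561 CPM there and at most 280 CPM elsewhere, and Dcn 345 CPM and at most 30.4 CPM. Bexarotene replicate 2 was second highest for Cyp26a1, Aldh1a2 and Stra6 and for the summed fibroblast markers (826 CPM), but not for the macrophage markers (523 CPM, below 3 tumors outside the bexarotene group). In that tumor the endothelial markers summed to 104 CPM and the skeletal muscle markers to 2.19 CPM, the lowest sums of the bexarotene group. Bexarotene replicates 3 and 4 had 230 and 161 CPM of fibroblast markers, within the 103 to 444 CPM of controls, and at most 3 reads of Cyp26a1 or Aldh1a2.

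The MSU-42011 tumors had 170 to 492 CPM of these markers and 0 to 0.0606 CPM of Aldh1a2, while control replicate 1, with 444 CPM, had 0.593 CPM. Of the fibroblast markers, Dcn and Lum were at 0 in some tumor, and none was at 0 in every tumor. The part of fibroblasts, muscle or other stromal cells in these results was not tested. For Aldh1a3 the highest control (22.6 CPM) was control replicate 2, which had the lowest summed fibroblast markers of all tumors.

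**Figure D4:**
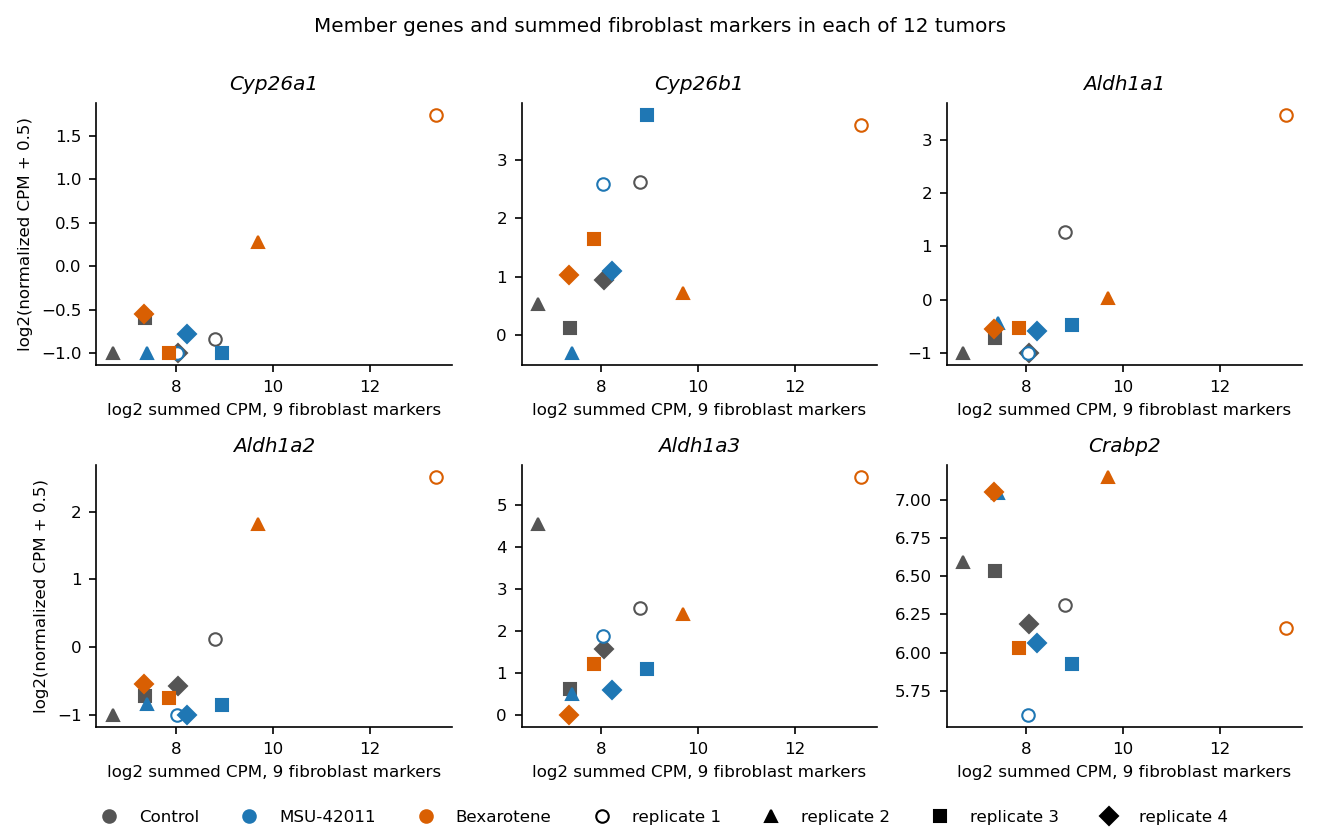
Log2(normalized CPM + 0.5) of 6 genes (vertical axis) against the log2 of the summed CPM of 9 fibroblast markers (horizontal axis) in each of the 12 tumors, by diet (color) and replicate number (symbol). Bexarotene replicates 1 and 2 have the highest fibroblast sums, 10530 and 826 CPM, and the highest Cyp26a1 and Aldh1a2, whereas Crabp2 shows no such order.

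The rest of the pathway was read from 5 lists with 68 genes, of which 67 were listed and 41 passed the filter. None had an adjusted p under 0.05 in edgeR in any comparison. At an unadjusted p under 0.05, 1 of 41 was higher and 0 lower with MSU-42011 than in controls, as were 1.14% and 0.851% of all genes. With bexarotene 3 were higher and 0 lower than in controls (4.48% and 1.96% of all genes), and 1 was higher and 1 lower without bexarotene replicate 1 (1.6% and 1.75%). With MSU-42011 1 was higher and 3 lower than with bexarotene (0.819% and 3.13% of all genes), and 1 was higher and 2 lower without bexarotene replicate 1 (1.59% and 1.47%).

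Among the receptors that read retinoic acid, Rxra (91.0 ± 18.0 CPM in controls, SD, n = 4) and Rara (21.2 ± 5.53 CPM) were expressed throughout. Rara was 17.1 ± 5.62 CPM with MSU-42011 and 26.2 ± 6.04 CPM with bexarotene, a log2 fold change of −0.61 (SE 0.25, adjusted p = 0.997, edgeR), and −0.46 without bexarotene replicate 1. Rxra was 74.7 ± 19.6 CPM with bexarotene, a log2 fold change of −0.28 (SE 0.23) against control, and −0.48 without bexarotene replicate 1. Of 6 receptor genes, Rarb, itself a classic RAR target, and Rxrg did not pass the filter.

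Among carriers and breakdown enzymes, Rbp7, a retinol binding protein of fat and vessels, was 39.9 ± 26.2 CPM with MSU-42011 and 14.6 ± 4.06 CPM with bexarotene (log2 fold change 1.45, SE 0.54, adjusted p = 0.997, edgeR), and 1.36 without bexarotene replicate 1. Its control tumors lay between 6.9 and 47.1 CPM. MSU-42011 replicate 4 had 77.4 CPM, against 17.1 to 36.1 CPM in the other MSU-42011 tumors. Fabp5, which can carry retinoic acid to another nuclear receptor, was 62.3 ± 44.6 CPM in controls, 68.7 ± 29.4 CPM with MSU-42011 and 124 ± 52.4 CPM with bexarotene. Its log2 fold change for bexarotene against control was 0.99 (SE 0.50), and 1.23 without bexarotene replicate 1. Cyp1b1, which can also oxidize retinol and retinal, had 81.7 CPM in bexarotene replicate 1 and at most 4.91 CPM elsewhere. Its log2 fold change for MSU-42011 against bexarotene was −5.84 (SE 1.85, adjusted p = 0.997, edgeR), and −2.26 without that tumor. Of the list for breakdown and delivery, 3 genes passed the filter, among them Cyp1b1, although it acts on retinol and retinal. Their median log2 fold change was −0.069 for MSU-42011 and 0.99 for bexarotene against control, beside 0.0016 and 0.030 over all genes tested. The bexarotene median was the value of Fabp5 alone. Without bexarotene replicate 1 it was 1.01, the value of Cyp1b1, beside 0.0062 over all genes. Over the 9 genes for transport and storage the median was −0.17 and −0.0067 (−0.020 without bexarotene replicate 1), and over 4 receptors −0.057 and −0.042 (−0.058 without it).

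Among response genes outside the members, Rarres2, a chemokine precursor named for its response to a synthetic retinoid, had 36.1 CPM in bexarotene replicate 1 and between 0.80 and 3.10 CPM elsewhere. All 4 bexarotene tumors lay above all 4 MSU-42011 tumors, and 1.04% of the genes with a count did not overlap in this comparison. The number of pathway genes without overlap is not given here. The log2 fold change of Rarres2 was −3.42 (SE 0.96, adjusted p = 0.997, edgeR), and −1.06 without bexarotene replicate 1. Hoxb4 was 3.80 higher on the log2 scale with MSU-42011 than in controls (SE 1.30, adjusted p = 1.00, edgeR), which rested on MSU-42011 replicate 2 (35.0 CPM), and 0.20 higher without it. Tgm2, a transglutaminase known as a target of retinoic acid, was 106 ± 27.0 CPM in controls and 82.2 ± 12.5 and 82.4 ± 17.2 CPM with MSU-42011 and bexarotene, log2 fold changes of −0.37 (SE 0.19) and −0.36 (SE 0.19), the latter −0.31 without bexarotene replicate 1. Over the 13 response genes that passed the filter, the median log2 fold change was −0.018 for MSU-42011 and −0.023 for bexarotene against control, beside 0.0016 and 0.030 over all genes tested. Without bexarotene replicate 1 the bexarotene median was −0.095, with 3 of 13 above 0, beside 0.0062 over all genes.

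For the oxidoreductases, 14 of 22 genes passed the filter and their median log2 fold change was 0.052 for MSU-42011 and 0.17 for bexarotene against control, or 0.14 without bexarotene replicate 1. Akr1b8, an aldo-keto reductase that can act on retinal, was 2.55 ± 0.830 CPM in controls and 8.48 ± 9.79 CPM with bexarotene. Its highest tumor was again bexarotene replicate 1 (23.0 CPM), and its log2 fold change of 1.74 (SE 0.65) was 0.52 without it. Sdr16c5, an epidermal retinol dehydrogenase, was 3.73 ± 2.99 CPM in controls, 8.58 ± 5.65 CPM with MSU-42011 and 3.21 ± 0.724 CPM with bexarotene.

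The kept genes whose log2 CPM was most like that of each kept member over the 12 tumors were then listed, 2 for each and with no test, since they were the highest of 15503 genes. For Cyp26b1 they were Mcam, a surface protein of pericytes and vessels (Pearson r = 0.95, Spearman rho = 0.88), and Serpine2, a protease inhibitor (r = 0.94, rho = 0.92). For Crabp2 they were Pmm2 (r = 0.96) and U2af1 (r = 0.95), for Aldh1a3 Ntrk2 (r = 0.97) and H2-Aa (r = 0.95), and for Dhrs3 Gm13031 (r = 0.88) and Coq8a (r = 0.87). Without the 2 tumors farthest from the median of the member, r was between 0.80 (Gm13031) and 0.93 (Pmm2). Without bexarotene replicate 1 it was between 0.88 (Coq8a) and 0.96 (Pmm2). All 12 points share their library, so that a stromal share or depth common to a tumor enters both axes.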

How the data were processed

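Poly(A) RNA of 12 mammary tumors, 1 ug of total RNA per library, was sequenced. The submitters' processing notes name STAR 2.6.1d, featureCounts 1.5.0-p3 and DESeq2. The authors deposited raw read counts per gene, without normalization, and FPKM per gene, which they scaled by total count and a gene length. The genome build is not given in the sources used here, and the coordinates of 98.3% of 54409 genes equal those of GENCODE M21 (GRCm38). Groups were taken from the labels, and all tumors were used.

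Counts were normalized by TMM and tested with edgeR 4.0.16 (quasi-likelihood F test, filterByExpr, 1 model with 3 group means, no covariate, R 4.3.3), with Benjamini-Hochberg adjustment over all genes and a threshold of 0.05. Exact two-sided permutation tests compared mean log2(CPM + 0.5). Counting intervals (95%) were Clopper-Pearson intervals of summed reads. Alternatives were DESeq2 1.42.0 with and without its Cook's distance filter, its size factors in edgeR, no filter, at least 10 counts in every tumor, a replicate block, each tumor left out, and limma 3.58.1 on log2 of FPKM plus 1 or 0.1. Leaving out tumors without the filter or in DESeq2 was added after seeing the data. The edgeR, DESeq2 and limma fits were tried on simulated counts of genes that passed the filter, with no outlying tumor. The simulation does not cover the members that failed the filter.

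The members, gene lists and marker lists were chosen with earlier results of these data known. Members were all named. From each pathway list, genes with an adjusted p under 0.05 and the 2 with the smallest unadjusted p in each comparison could be named.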

Additional observations from a re-analysis of the deposited data

Results flagged for a closer look

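In 8 of 27 sets of 4 tumors (9 genes in 3 groups), the highest tumor stood farther from the next than Dixon's 95% limit for 4 samples allows. Normally distributed values pass this limit in about 1 of 20 sets, a rate that low counts need not follow. The share of sets past the limit over all genes was not computed, so the count is no result about the members. Of the 8, 4 were bexarotene replicate 1, namely Cyp26b1 (11.7 CPM), Crabp1 (1.11 CPM), Aldh1a1 (10.6 CPM) and Aldh1a3 (50.2 CPM). Control replicate 1 was such a tumor for Cyp26b1 (5.64 CPM) and Aldh1a1 (1.90 CPM), and MSU-42011 replicate 2 for Dhrs3 (136 CPM). MSU-42011 replicate 4 was one for Cyp26a1 (0.0838 CPM), where its 2 reads stood against none in the other 3 tumors. Cyp26a1 and Aldh1a2 in the bexarotene group did not pass the limit, since replicate 2 was also above the rest.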

How the results depend on the processing

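In the 12 fits that each lacked 1 tumor, the number of members with an unadjusted p under 0.05 in edgeR ran from 0 to 1 for MSU-42011 against control and for bexarotene against control, from 0 to 3 for MSU-42011 against bexarotene and from 0 to 3 for any difference, and Aldh1a2 or Aldh1a1 passed the filter in some of these fits. Of all genes, 1.15% to 4.27%, 3.35% to 10.1%, 2.72% to 7.87% and 2.46% to 7.11% did so in these 4 tests. Without the filter it ran from 0 to 2 for MSU-42011 against control (1.55% to 3.26% of all genes) and from 2 to 5 for any difference (3.14% to 6.69%), and in the latter 0 to 2 members had an adjusted p under 0.05 (0% to 0.572% of all genes), Aldh1a2 without bexarotene replicate 3 or 4 and Cyp26a1 without bexarotene replicate 3. For any difference, 4 members had an unadjusted p under 0.05 without the filter (4.92% of all genes), 2 in DESeq2 (3.53%) and 0 in limma without the filter (2.44%). For bexarotene against control, 2 had one without the filter (6.24%), 2 in DESeq2 (4.7%) and 0 in limma without the filter (3.31%). For MSU-42011 against bexarotene the count was 1 in edgeR (3.95%), 4 without the filter (4.74%), 3 in DESeq2 (3.13%), 4 in DESeq2 without its Cook's distance filter (3.69%), 0 with at least 10 counts in every tumor (3.13%), 0 in limma on log2 of FPKM plus 1 or plus 0.1 (2.01% and 2.06%), and 1 in limma without the filter (2.63%). DESeq2 gave 1 member with an adjusted p under 0.05 in this comparison, with its Cook's distance filter (25 of 29576 genes) and without it (42 of 29907 genes). With 1 tumor left out, members whose groups did not overlap numbered 0 to 2 for MSU-42011 against control (2.4% to 5.62% of the genes with a count), 0 to 1 for bexarotene against control (2.72% to 4.75%) and 1 to 2 for MSU-42011 against bexarotene (1.92% to 3.93%), and the DESeq2 log2 fold change of Aldh1a2 lay between −6.87 and −5.34.

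The main model did not treat the replicate numbers as pairs. Of 12 pairs with the same number, 4 had deviations correlated above 0.1, and 5 of 12 tumors correlated best with a tumor of their own number. The level of these counts without pairing was not computed, so they cannot decide whether tumors were paired. With the replicate block, 0 members had an unadjusted p under 0.05 for MSU-42011 against bexarotene (2.68% of all genes), and the log2 fold change of Aldh1a3 for bexarotene against control was −0.13.

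Of 441 values of single members under an alternative, 423 kept their direction, and the cause of the other 18 was not tested. These values were edgeR log2 fold changes for Cyp26b1, Crabp2, Aldh1a3 and Dhrs3, and differences in mean log2(CPM + 0.5), a scale that damps low levels, for the other 5 members. With 1 tumor left out, the value for MSU-42011 against control ran from −0.14 to 0.0020 for Cyp26a1, −0.17 to 0.016 for Crabp1, −0.55 to 0.018 for Crabp2, −0.47 to 0.28 for Aldh1a1 and −0.088 to 0.071 for Stra6. That for bexarotene against control ran from −0.27 to 2.10 for Cyp26b1, −0.21 to 0.35 for Crabp1 and −1.74 to 2.28 for Aldh1a3. That for MSU-42011 against bexarotene ran from −0.78 to 1.55 for Cyp26b1, −0.45 to 0.11 for Crabp1 and −0.40 to 0.014 for Dhrs3. The direction turned without control replicate 1 (Crabp1, Aldh1a1), 2 (Stra6) or 3 (Cyp26a1, Stra6), without MSU-42011 replicate 1 (Crabp2, Stra6) or 3 (Cyp26b1), and without bexarotene replicate 1 (Cyp26b1, Crabp1, Aldh1a3), 2 (Cyp26b1) or 3 (Dhrs3). As edgeR log2 fold changes without the filter, the ranges for MSU-42011 against control were −3.21 to 0.42 for Cyp26a1, −1.89 to 0.23 for Crabp1, −2.02 to 2.07 for Aldh1a1 and −0.47 to 0.43 for Stra6. Those for bexarotene against control were −3.79 to 2.89 for Crabp1 and −0.66 to 6.21 for Aldh1a1, whose direction thus also turned without bexarotene replicate 1 on this scale, and that for MSU-42011 against bexarotene was −3.62 to 2.87 for Crabp1. The ends of the Crabp1 ranges without bexarotene replicate 1, where the bexarotene group had no read, depend on the prior count and are no bounds. The same holds for the lower end for Cyp26a1, from the fit without MSU-42011 replicate 4, where the MSU-42011 group had no read. On log2 of FPKM plus 1 or plus 0.1, Stra6 was 0.0012 or 0.010 higher with MSU-42011 than in controls, and Aldh1a3 was −0.035 for bexarotene against control with 0.1 added.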
